A study of Mus musculus with 4 samples.

Results

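The 10 genes described here encode chaperones, thiol oxidoreductases and channel subunits of the endoplasmic reticulum (ER): Hspa5, Hsp90b1, Calr, Canx, P4hb, Pdia3, Pdia4, Pdia6, Sec61a1 and Sec61b. They were chosen by symbol as abundant mRNAs translated at the ER membrane, and all 10 were found among the 17259 genes of the deposited table. The question put to them was how far mRNAs of the ER accompany mitochondria isolated from brown adipose tissue, compared with the tissue the mitochondria came from.

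RNA had been sequenced from brown adipose tissue (BAT), the heat-producing fat, of wild-type (WT) mice, in 4 libraries. A pair of libraries came from isolated mitochondria (BAT-Mito replicates 1 and 2) and the other pair was titled BAT-total (replicates 1 and 2). The treatment label of the BAT-total pair names the tissue with its mitochondria removed, whereas the study also speaks of total lysates, so that these libraries hold either the whole tissue or what the isolation left. The labels give neither the age of the mice nor whether replicates came from separate animals, and p-values then measure only the spread between these libraries, which may be technical. For heart, the study homogenised the tissue, pelleted debris at low speed and mitochondria at higher speed, and treated the pellet with digitonin and RNase A before RNA isolation; no separate protocol for BAT was found in the sources used here. Bulk RNA cannot tell fewer cells of a type from less RNA per cell.

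The deposited values are gene counts that the authors divided by a size factor per library and rounded, called normalised counts below. In the BAT-Mito libraries they rose in steps of one read, so that 26288871 and 24910434 reads could be counted back in replicates 1 and 2, and a floor of 3 reads, used as the one-sided limit for a count of 0 (the two-sided Poisson intervals reach somewhat higher), lay at 25 and 20.7 normalised counts. In BAT-total the steps could not be resolved and the depth is unknown. The reads of BAT-Mito came overwhelmingly from mitochondrial genes, and only 49420 and 58238 of them fell on nuclear protein-coding genes. The BAT-Mito libraries also differed from each other in the cell types their mRNAs mark. The 17 liver markers summed to 15436 normalised counts in BAT-Mito replicate 1 and 1485 in replicate 2, against 603 and 276 in BAT-total, with none at 0 in BAT-Mito and 8 at 0 in BAT-total replicate 2. The 12 brown adipocyte markers summed to 2904 and 8088 in BAT-Mito and 13863 and 12378 in BAT-total. Of the defining markers, Ucp1, the uncoupling protein of brown fat, stood at 1290, 3554, 4819 and 4185 in the order BAT-Mito 1 and 2, BAT-total 1 and 2, and Adipoq, a hormone of adipocytes, at 100, 186, 392 and 328. Alb, the serum albumin made by hepatocytes, stood at 4943, 393, 97 and 3.

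Secreted and membrane proteins are made by ribosomes docked on the ER. The nascent chain enters through the Sec61 channel, is held by the Hsp70 and Hsp90 proteins of the lumen or by the lectins calnexin and calreticulin, and receives its disulfide bonds from protein disulfide isomerases. Because the first stretch of each of these chaperones is a signal that targets the ribosome to the ER, their own mRNAs are found largely on the ER membrane, and the ER touches mitochondria at contact sites. Brown adipocytes, which are packed with mitochondria, also contain ER, and secretory cells such as hepatocytes are rich in it.

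Of the members, 7 carry an address of the ER at the end of their coding sequence. Many proteins of the ER lumen end in the KDEL signal or a close relative of it, which returns them from the Golgi apparatus. The last 27 bases of the coding sequence, read from GENCODE M21 transcripts (GRCm38), are shown for all members because they separate the lumenal proteins from those anchored in the membrane; capitals mark the last 4 codons before the stop codon.
Hspa5: gatacatcagaaAAAGATGAGTTGtag
Hsp90b1: gaatctacagagAAGGATGAATTGtaa
Calr: cctggccaagccAAGGATGAGCTGtag
P4hb: cagaaagctgtgAAGGATGAACTGtag
Pdia6: gatgacctggagAAGGATGAGTTGtga
Pdia4: aggagcaggaccAAGGAAGAGCTTtaa
Pdia3: aagaagaaggcaCAAGAGGACCTCtaa
Canx: agaaacagaaagCCACGAAGAGAGtga
Sec61a1: ggcagcatgggaGCCCTTCTCTTCtga
Sec61b: atttggggcaagTACACGCGATCAtag
The first 5 sequences differ in their codons but encode the same residues, the canonical KDEL signal. Pdia4 and Pdia3 end in relatives of the signal, and the last 3 members, which are membrane proteins, have no such end.

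At the deposited scaling, the 8 chaperones and oxidoreductases lay at levels in BAT-Mito that overlapped those in BAT-total. The mRNA of the channel subunit Sec61a1 had 1 read and 0 reads in the BAT-Mito libraries, a low count that many genes shared. Genes with a mean of at least 10 normalised counts were tested, 8215 in all, with limma on log2(normalised count + 1), and genes with an adjusted p below 0.05 were called. Of the genes tested, 3204 had 3 reads or fewer in both BAT-Mito libraries, as Sec61a1 and Sec61b had. None of the 10 members was called higher or lower by limma. Over all genes tested, limma called 0.803% higher and 4.41% lower in BAT-Mito. At an unadjusted p under 0.05, 0 members were higher and 1, Sec61a1, was lower, against 3.2% of all genes tested higher and 14.9% lower, so that 1 of 10 was near the background. With BAT-total values taken as reads, edgeR also called 0 members in either direction, against 2.17% of genes higher and 2.5% lower, and DESeq2 called 0 of the 9 it gave an adjusted p, against 2.79% higher and 3.14% lower. With 2 libraries a group, a call that is missed does not show that levels were alike.

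The Hsp70 and Hsp90 chaperones of the lumen were among the members with the most reads. Hspa5 (ENSMUSG00000026864, chr2:34771970-34777547, plus strand, GRCm38), which encodes BiP, the Hsp70 of the ER and the sensor partner of the unfolded protein response, stood at 325 and 207 normalised counts in BAT-Mito (39 and 30 reads) and 264 and 279 in BAT-total. The BAT-Mito values enclosed those of BAT-total, and the log2 fold change (BAT-Mito minus BAT-total) was -0.06 (SE 0.48, limma adjusted p = 0.931). Hsp90b1 (ENSMUSG00000020048, chr10:86690209-86705509, minus strand), which encodes GRP94, the Hsp90 of the ER, stood at 391 and 228 in BAT-Mito (47 and 33 reads) and 279 and 297 in BAT-total. Here too the groups overlapped, with a log2 fold change of 0.05 (SE 0.50, adjusted p = 0.948). Summed over both BAT-Mito libraries, the ratio of BAT-Mito to BAT-total was 0.959 for Hspa5 (95% Poisson interval 0.746 to 1.21) and 1.05 for Hsp90b1 (0.831 to 1.30); these intervals cover the counting error of the BAT-Mito reads only.

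The lectin chaperones, which hold glycoproteins during folding, are a soluble and a membrane-bound form. Calr (ENSMUSG00000003814, chr8:84841850-84846934, minus strand), the soluble calreticulin, stood at 499 and 186 in BAT-Mito (60 and 27 reads) and 225 and 180 in BAT-total. BAT-Mito replicate 1 was the highest library and replicate 2 lay within the BAT-total values, so that the log2 fold change of 0.60 (SE 0.69, adjusted p = 0.599) was smaller than its error. The ratio was 1.62, and its counting interval of 1.30 to 2.0 lay above 1, with the excess in replicate 1 alone. Canx (ENSMUSG00000020368, chr11:50293961-50325673, minus strand), the membrane-bound calnexin, stood at 250 and 186 in BAT-Mito (30 and 27 reads) and 251 and 250 in BAT-total. Its BAT-Mito libraries were the closest of any member on the log2 scale, at 218 ± 45.3 against 250.5 ± 0.707 (mean ± SD, n = 2 each), with a log2 fold change of -0.22 (SE 0.44, adjusted p = 0.758) and a ratio of 0.858 (0.650 to 1.11).

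The 4 protein disulfide isomerases form and rearrange disulfide bonds, and P4hb and Pdia3 among them showed the widest spread on the log2 scale between the BAT-Mito libraries of the members above the floor. P4hb (ENSMUSG00000025130, chr11:120560298-120573253, minus strand), the founding member of the family and also a subunit of the collagen prolyl hydroxylase, stood at 316 and 41 in BAT-Mito (38 and 6 reads) and 97 and 68 in BAT-total. One BAT-Mito library was above and the other below both BAT-total libraries. Pdia3 (ENSMUSG00000027248, chr2:121413775-121438687, plus strand), which works on glycoproteins held by the lectin chaperones, had the same order, with 208 and 48 in BAT-Mito (25 and 7 reads) and 136 and 141 in BAT-total. The log2 fold changes were 0.49 for P4hb (SE 1.21, adjusted p = 0.801) and -0.46 for Pdia3 (SE 0.90, adjusted p = 0.748). The ratio over both BAT-Mito libraries was the highest of all members for P4hb, 2.01 with a counting interval of 1.46 to 2.70, again from replicate 1, and 0.872 for Pdia3 (0.596 to 1.23).

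Pdia4 and Pdia6, further oxidoreductases of the lumen, were present at lower levels. Pdia4 (ENSMUSG00000025823, chr6:47796141-47813430, minus strand) stood at 75 and 35 in BAT-Mito (9 and 5 reads) and 48 and 35 in BAT-total, with a log2 fold change of 0.32 (SE 0.60, adjusted p = 0.742). Pdia6 (ENSMUSG00000020571, chr12:17266545-17284770, plus strand) stood at 108 and 48 in BAT-Mito (13 and 7 reads) and 68 and 71 in BAT-total, with a log2 fold change of 0.05 (SE 0.60, adjusted p = 0.957). For both genes BAT-Mito replicate 1 was highest, and the few reads left wide counting intervals on the ratio, 0.696 to 2.14 for Pdia4 and 0.663 to 1.68 for Pdia6.

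The channel subunits were the least abundant members in BAT-Mito. Sec61a1 (ENSMUSG00000030082, chr6:88503579-88518905, minus strand) encodes the alpha subunit that forms the pore of the translocon. It stood at 8 and 0 in BAT-Mito, which is 1 read and 0 reads, and at 45 and 49 in BAT-total. It was the member whose BAT-Mito libraries both lay below both BAT-total libraries, at a log2 fold change of -4.00 (SE 1.28, limma adjusted p = 0.270). The edgeR adjusted p on reads was 0.072, and over the 16 settings tried the adjusted p ran from 0.000116 to 0.844. The fold change rests on 1 read: it was -5.58 without BAT-Mito replicate 1, -2.41 without replicate 2 and -2.09 with a pseudocount of 10. The ratio of BAT-Mito to BAT-total was 0.0803, with a counting interval of 0.00203 to 0.447. Sec61b (ENSMUSG00000053317, chr4:47474658-47483242, plus strand), the small beta subunit at the side of the pore, stood at 25 and 0 in BAT-Mito (3 reads and 0 reads) and 15 and 13 in BAT-total. With a ratio of 0.808 and an interval of 0.167 to 2.36, a difference in Sec61b was not detectable at this depth.

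**Figure D1:**
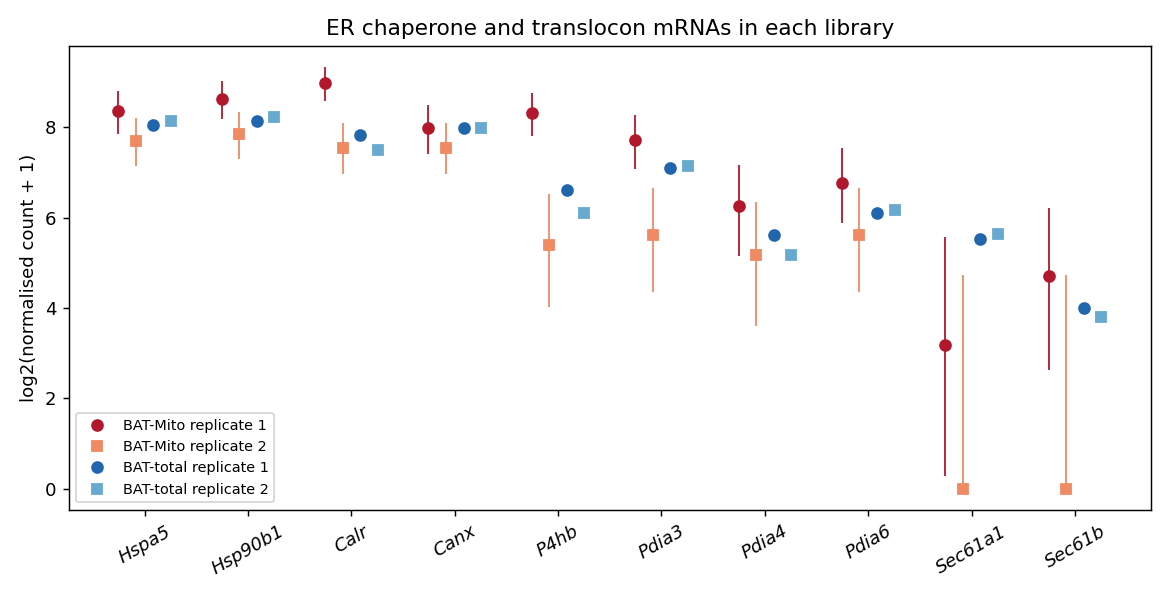
Normalised counts of the 10 members as log2(value + 1), with a point per library and, for BAT-Mito, bars that give the 95% Poisson interval of the reads. BAT-Mito replicate 1 lies above replicate 2 for all 10 members, the BAT-total values lie close together, and Sec61a1 is low in both BAT-Mito libraries.

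All 10 members were higher in BAT-Mito replicate 1 than in replicate 2. Among the 8 members with reads in both libraries the median difference was 1.12 on the log2 scale (range 0.42 to 2.92); Sec61a1 and Sec61b had 1 and 3 reads in replicate 1 and 0 in replicate 2. In contrast, over all genes tested the median difference was 0.00 and 48.0% of genes were higher in replicate 1. In BAT-total, 5 members were higher in replicate 1 and 5 in replicate 2, with a median difference of -0.02 (range -0.12 to 0.51). For Calr, P4hb and Pdia3 the counting intervals of the BAT-Mito libraries did not overlap, and for the other 7 members they did. Within BAT-Mito the liver markers differed in the same direction as the members, being higher in replicate 1 by a median over genes of 3.65 on the log2 scale. So were the 10 skeletal muscle markers (1.75, summing to 3804 and 1139 in BAT-Mito and 349 and 748 in BAT-total), while the brown adipocyte markers were lower (-1.32). In BAT-total, where the members differed little, these medians were 2.46 for liver, -1.04 for muscle and 0.19 for brown adipocyte markers. The 8 endothelial markers had 15 reads in BAT-Mito replicate 1 and 1 read in replicate 2, too few for a fold, and summed to 1029 and 1073 normalised counts in BAT-total. The part of these tissues and cell types in the members' levels was not tested.

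Levels were compared between members per length of exon. For several members this length was greater than that of the transcript whose coding end is shown above. It was 1271 against 564 bases for Sec61b, 6732 against 3172 for Sec61a1 and 3745 against 2175 for Pdia6. For P4hb (2861) and Pdia4 (2399) both lengths were the same. The orders below therefore hold for the exon lengths used, and an order by transcript length was not tested. Per kb of exon in BAT-total, Hsp90b1 (71.4 ± 3.16 normalised counts per kb, SD, n = 2), Calr (70.3 ± 11.0) and Hspa5 (64.2 ± 2.51) came first, and neighbours among these did not differ beyond their spread. Canx (53.4), Pdia3 (44.1) and P4hb (28.8) followed, each separate from the next. Pdia6 (18.6) and Pdia4 (17.3) overlapped, and Sec61b (11.0) and Sec61a1 (6.98) came last. In BAT-Mito, Calr (119 ± 76.8 per kb) came first and Sec61a1 (0.594 ± 0.840) last, but no neighbours in that order were separated by more than the spread of the replicates.

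Genes in general were lower in BAT-Mito at this scaling, and the members as a group were not. The median log2 fold change was -0.01 over the 10 members and -1.23 over all genes tested, a difference of 1.22. It was 0.73 with a pseudocount of 10 and 0.84 by edgeR and by DESeq2. Calr had a higher fold change than 89.6% of the genes tested, P4hb than 88.4%, Hsp90b1 than 82.0%, Hspa5 than 80.0% and Canx than 77.0%. For Sec61b that share was 41.6% and for Sec61a1 6.49%. Among genes as abundant as the leading members the gap was of similar size: among the 250 nuclear genes with a mean of 200 to 400 normalised counts the median log2 fold change was -1.02, and for Hspa5, Hsp90b1, Calr and Canx, the members at that level, it was -0.01. At means of 20 to 50 the order was the opposite, with -1.84 for 2 members against -1.24. Members stood at -1.55 against -1.73 at 10 to 20, 0.05 against -0.98 at 50 to 100 and 0.01 against -1.02 at 100 to 200.

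The gap depended on BAT-Mito replicate 1. Without that library the members' median was -0.48, which is 0.44 above the median of all genes, and without BAT-Mito replicate 2 it was 0.61, which is 1.66 above it. Within the level bin of Hspa5, Hsp90b1, Calr and Canx, the medians without BAT-Mito replicate 1 were -0.36 for the members and -0.57 for the bin, and without replicate 2 they were 0.35 and -1.39. Leaving out a BAT-Mito library leaves that group with 1 sample, which limma then assumes to vary like the others. Without replicate 1, limma called 3 members lower (Pdia3, Sec61a1 and Sec61b), against 41.1% of all genes lower and 5.68% higher in the same fit. Without replicate 2 it called P4hb higher and Sec61a1 lower, against 7.57% of all genes higher and 47.0% lower, so that the lower calls among members were no more frequent than among all genes in either fit.

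**Figure D2:**
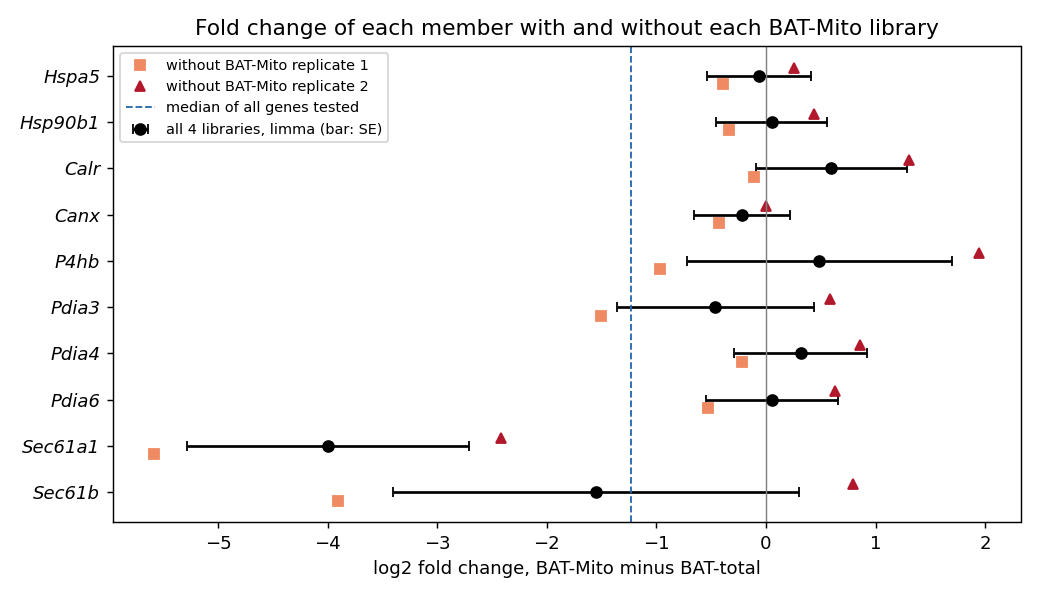
Log2 fold change of each member (BAT-Mito minus BAT-total) from all 4 libraries with its SE (circles and bars), without BAT-Mito replicate 1 (squares) and without BAT-Mito replicate 2 (triangles). The dashed line is the median of all genes tested, -1.23; 8 members lie to its right with all libraries, and for all 10 members the value without replicate 2 lies right of that without replicate 1.

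Fold changes at the deposited scaling depend on the size factors, so the members were also counted against the nuclear mRNAs of their own library. As a share of all values on nuclear protein-coding genes, the 10 members took 0.536% in BAT-Mito replicate 1 (265 reads, 95% Wilson interval 0.476 to 0.605%) and 0.243% in replicate 2 (142 reads, 0.207 to 0.287%). In BAT-total they took 0.222% and 0.218%. This gave a mean of 0.390% ± 0.207 in BAT-Mito and of 0.220% ± 0.00224 in BAT-total (SD over 2 libraries), and the difference of 0.170 percentage points was smaller than the spread in BAT-Mito. The interval of replicate 2 held both BAT-total shares. With the liver markers and the major urinary protein genes left out of the total, the shares in BAT-Mito were 0.588% and 0.245%.

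Gene by gene on this scale, in units of one normalised count per 1000000 on nuclear protein-coding genes, Hspa5 reached 790 and 514 in BAT-Mito against 410 and 441 in BAT-total, Hsp90b1 951 and 566 against 433 and 469, and Calr 1214 and 462 against 349 and 284. These chaperones and Canx, Pdia4 and Pdia6, 6 members in all, were higher in both BAT-Mito libraries than in both BAT-total libraries. Of all genes tested, 17.2% had that order and 33.5% the opposite one, which Sec61a1 had (19.5 and 0 against 69.8 and 77.4). At the deposited scaling 0 members were above and 1 was below without overlap, against 8.59% and 52.1% of genes. As a share of all genes, mitochondrial transcripts included, the order of the groups turned: the members took 0.00101% and 0.000569% of BAT-Mito and 0.0898% and 0.0726% of BAT-total.

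The wider ER machinery was taken from lists of its genes by role, and its medians lay below that of the members. Many of these genes had 3 reads or fewer in both BAT-Mito libraries. They were 14 of 32 folding, 18 of 39 targeting, 12 of 22 degradation, 9 tested oligosaccharyltransferase (2) and 15 unfolded protein response genes (5). The same held for 2 of 10 members and 3204 of all 8215 genes tested. With a mean of at least 50, medians were -1.01 for folding, -0.29 for targeting and 0.05 for 7 members. Of 32 other ER folding genes tested, 0 were called by limma or by edgeR (1 higher and 3 lower at an unadjusted limma p under 0.05, where 3.2% and 14.9% of all genes lay), and their median log2 fold change was -1.27, near that of all genes. With no filter on the mean, limma called 6 genes of this list lower and 0 higher, and the share of all genes called in that fit was not counted. Calu, a calcium-binding protein of the secretory pathway, stood at 83 and 97 in BAT-Mito and 179 and 186 in BAT-total. Serpinh1, the chaperone of collagen, stood at 67 and 186 against 146 and 122, and Hyou1, a large Hsp70-like chaperone of the lumen, at 117 and 62 against 103 and 112. As a share of nuclear protein-coding values, all 41 genes of this list, tested or not, took 0.251% and 0.228% in BAT-Mito and 0.267% and 0.269% in BAT-total. The other ER lists likewise had a higher share in BAT-Mito replicate 1 than in replicate 2, at 0.330% and 0.261% for targeting and translocation, 0.0893% and 0.0688% for the oligosaccharyltransferase, 0.167% and 0.107% for degradation and 0.129% and 0.0946% for the unfolded protein response. In each of these lists the Wilson intervals of the BAT-Mito libraries overlapped, which those of the members did not, and 53.3 to 66.7% of the genes tested in a list were higher in replicate 1, against all 10 members. The median difference between the BAT-Mito libraries was 1.39 on the log2 scale for the unfolded protein response, as large as the 1.29 over all 10 members. In the other ER lists it was 0.23 to 0.63. The difference between the lists and the members was not tested.

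Among 39 other genes of targeting and translocation, limma called 2 lower and 0 higher (7 lower and 0 higher at an unadjusted p under 0.05, near the 14.9% of all genes that were lower), with a median of -1.57, and edgeR called 1 lower. The median was -1.06 without BAT-Mito replicate 1, -0.62 without replicate 2 and -0.70 by edgeR. The called genes were Spcs3, a subunit of the signal peptidase (0 reads in both BAT-Mito libraries, 23 and 27 in BAT-total), and Tmem147, a protein bound to the translocon (0 reads, 20 and 20). Both stood in BAT-total near the floor of the BAT-Mito libraries, and edgeR called neither (adjusted p = 0.113 and 0.148). No gene of this list was called lower with a replicate block, with a pseudocount of 10, by DESeq2 or without either BAT-total library. With a mean of at least 50, limma called 0 genes of this list lower, and with no filter on the mean it called 7. The share of all genes called in those fits was not counted. The more abundant Ssr3, a subunit of the translocon-associated complex, stood at 100 and 55 against 130 and 118, and Ccdc47, another translocon-associated protein, at 67 and 76 against 124 and 104. Sec62, which assists translocation after translation, stood at 58 and 90 against 100 and 78. The RNA of the signal recognition particle, listed under Rn7s1 and Rn7s2 and chosen after its values were seen, stood at 1207 and 552 in BAT-Mito and 464 and 507 in BAT-total for Rn7s1, and at 990 and 476 against 369 and 383 for Rn7s2; these copies are nearly identical, and as reads that aligned to several places were excluded, the values cover only reads placed in one copy.

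No gene of the oligosaccharyltransferase (9 tested), of ER-associated degradation (22) or of the unfolded protein response (15) was called by limma or by edgeR. At an unadjusted limma p under 0.05, 0, 3 and 2 of them were lower and 0 were higher, again near or below the 14.9% of all genes. The median log2 fold changes were -0.89, -1.67 and -2.21. They were -1.12, -0.78 and -1.92 without BAT-Mito replicate 1 and 0.09, -1.07 and -1.42 without replicate 2, so that the sign for the oligosaccharyltransferase turned with that library. By edgeR the medians of the 3 lists were -0.63, -0.87 and -1.41. Rpn1, a subunit of the oligosaccharyltransferase that adds sugar chains, stood at 67 and 76 in BAT-Mito and 60 and 66 in BAT-total, Stt3b, a catalytic subunit, at 67 and 62 against 142 and 113, and Rpn2 at 67 and 28 against 62 and 62. In degradation, Sel1l, the scaffold of a ubiquitin ligase, stood at 117 and 0 against 90 and 111, and Derl1, a retrotranslocation factor, at 17 and 48 against 87 and 84. Of the stress response, Nfe2l1, an ER-anchored transcription factor, stood at 100 and 186 against 448 and 456, Ppp1r15b, a phosphatase subunit, at 100 and 35 against 260 and 297, and Mbtps1, a Golgi protease, at 75 and 28 against 104 and 114. For Nfe2l1, Ppp1r15b and Mbtps1 both BAT-Mito libraries lay below both BAT-total libraries, an order that 9 of the 15 genes of this list and 52.1% of all genes tested had, and none of these differences passed the limma test.

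Lists of other cellular places were set beside the members. The 28 cytosolic chaperone genes tested had a median of -0.87 (-0.47 without BAT-Mito replicate 1 and -1.31 without replicate 2) and 0 calls (0 higher and 2 lower at an unadjusted p under 0.05, 0 by edgeR). In that list Hsp90ab1, the cytosolic relative of Hsp90b1, stood at 666 and 883 in BAT-Mito and 899 and 812 in BAT-total, Hspa8, a cytosolic relative of Hspa5, at 141 and 331 against 567 and 602, and Hspa4 at 83 and 173 against 223 and 194. Unlike the members, these were all higher in BAT-Mito replicate 2, as were 20 of the 28 genes tested in that list, with 8 higher in replicate 1. The mitochondrial chaperone and import genes (28 tested, median -1.43, or -0.50 without BAT-Mito replicate 1, -1.08 without replicate 2 and -0.68 by edgeR), whose proteins work in the mitochondrion, had 1 lower call, Pam16 (0 reads in BAT-Mito, 22 and 28 in BAT-total), against 4.41% of all genes. That call was absent with edgeR, with DESeq2, with a pseudocount of 10, with a replicate block and without either BAT-total library. Hspa9, the Hsp70 of mitochondria, stood at 325 and 1139 against 1277 and 1177, Hspd1 at 100 and 193 against 396 and 433, and Dnaja3 at 50 and 166 against 314 and 248.

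Collagens are also translated at the ER. The 16 tested had a median log2 fold change of 0.25 and 0 calls by limma (0 at an unadjusted p under 0.05) and 0 by edgeR. All 18 listed collagens took 0.757% and 0.788% of nuclear protein-coding values in BAT-Mito and 0.465% and 0.467% in BAT-total, so that, unlike the members, they were higher in both BAT-Mito libraries by a similar amount. Col3a1, a fibrillar collagen, stood at 682 and 835 against 535 and 511, whereas Col4a1 and Col4a2 of the basement membrane stood at 358 and 490 against 696 and 614, and at 225 and 221 against 465 and 439. Lists translated in the cytosol differed among themselves. The 76 cytosolic ribosomal protein genes tested had a median of -0.30 (-0.07 without BAT-Mito replicate 1 and -0.51 without replicate 2), also near the members, with 0 calls by limma (0 higher and 1 lower at an unadjusted p under 0.05) and 0 by edgeR. All 81 listed took 1.44% and 2.02% in BAT-Mito against 1.24% and 1.10% in BAT-total, higher in both BAT-Mito libraries. The 17 glycolytic enzyme genes had a median of -0.99 (-0.51 without BAT-Mito replicate 1 and -1.88 without replicate 2) and 0 calls (1 higher and 3 lower at an unadjusted p under 0.05, 0 by edgeR), and took 0.443% and 1.48% in BAT-Mito against 0.968% and 1.19%. Aldoa stood at 358 and 1760 against 1247 and 1718, Eno1 at 133 and 718 against 905 and 1163, and Pkm at 208 and 821 against 722 and 820, so that BAT-Mito replicate 1, the library high in the members, was the low one for these enzymes.

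**Figure D3:**
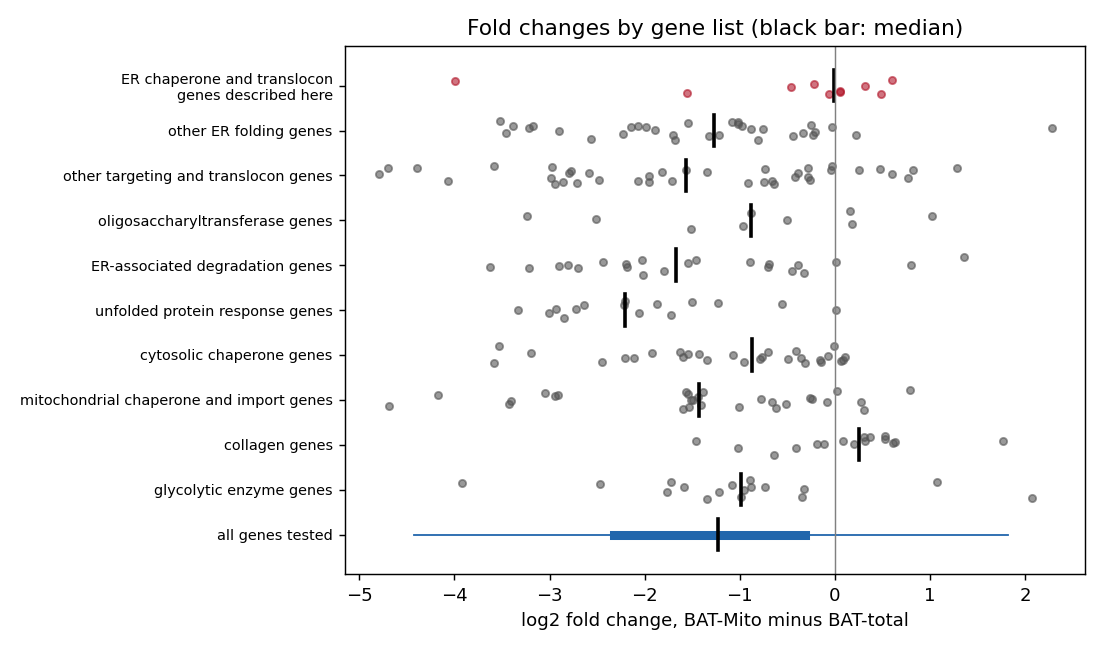
Log2 fold changes (BAT-Mito minus BAT-total) by gene list, with a point per gene tested and a black bar at the median; for all genes tested the thick line covers the middle 50% and the thin line the middle 90%. Of the lists plotted, the members (median -0.01) and the collagens (0.25) lie furthest right; marker lists and ribosomal protein genes (-0.30) are not plotted, and Sec61a1 is the member at -4.00.

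**Figure D4:**
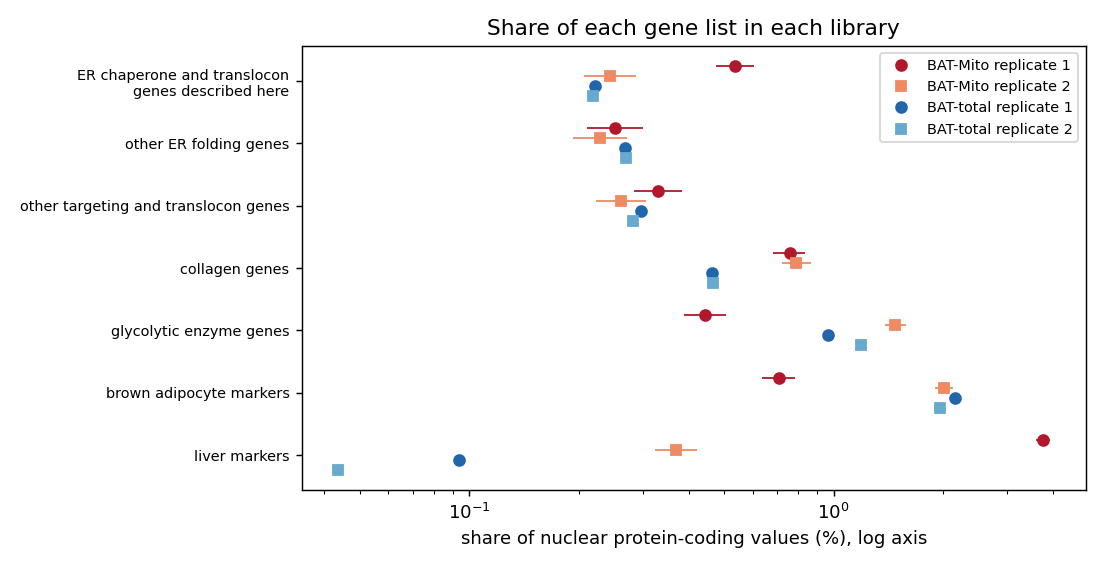
Share of nuclear protein-coding values (log axis, percent) taken by each list in each library, with 95% Wilson intervals for BAT-Mito. The members are high in BAT-Mito replicate 1 (0.536%) and near BAT-total in replicate 2 (0.243%); the liver markers show the same order and the glycolytic enzymes and brown adipocyte markers the opposite one within BAT-Mito.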

How the data were processed

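The authors trimmed single-end reads with Trimmomatic 0.39, aligned them to GRCm38 with STAR 2.7.10a, counted genes with featureCounts 2.0.2 and normalised with DESeq2 1.30.1 (versions from the submitters' processing notes). The study left out reads that overlapped several genes or aligned to several places. Fragmentation time was adjusted for mitochondrial RNA, so library preparation may differ between the groups. The deposited signal is a count divided by a size factor and rounded. Whole reads were recovered in BAT-Mito for 100.0% of values (tolerance 0.51 units), and could not be recovered in BAT-total.

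Values were compared as log2(normalised count + 1) for genes with a mean of at least 10, with limma 3.58.1 in R 4.3.3 and Benjamini-Hochberg adjustment over all 8215 genes; edgeR 4.0.16 and DESeq2 1.42.0 were alternatives on reads. Scripts were tested on simulated data. Further alternatives covered pseudocount, filter, scaling, a replicate block and each library left out. All members were named, and in each ER, chaperone, collagen and glycolytic list the genes called by limma and the 3 highest in BAT-total, except a gene left out of the text. Cell type markers and ribosomal protein genes were given as lists. Members and lists were chosen with earlier results of these data known. A list taken from Gene Ontology terms, the totals without Gm20594 and the total without liver genes were added after seeing the data. Of the pancreatic acinar markers 0 of 14 were in the table. Wilson and Poisson intervals and the floor of 3 reads cover counting error only. Coordinates of all 10 members are the same in the table and in GENCODE M21.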

Additional observations from a re-analysis of the deposited data

How the results depend on the processing

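Among the 10 members, limma called 10 lower with CPM over all genes, where 96.9% of all genes tested were also called lower, and the median log2 fold change was then -6.62 against -7.15 for all genes. With 1 library left out, the number of members called ranged from 0 to 1 higher and from 0 to 3 lower, while up to 7.57% and 47.0% of all genes were called in those fits, and the median relative to all genes from 0.44 to 1.66. The difference in share turned to -0.164 over all nuclear genes and to -0.0804 percentage points over all genes. The signs of small fold changes turned with the scaling: Hspa5 was 0.28 (TMM), 0.59 (median ratios), 0.58 (CPM over nuclear protein-coding genes) and 0.65 (the same without Gm20594, a nuclear gene with mitochondria-like sequence), Canx was 0.13, 0.44, 0.43 and 0.50, and Pdia3 was 0.19 (median ratios), 0.18 and 0.25. With CPM over all genes Hsp90b1 was -6.70, Calr -6.15, P4hb -6.14, Pdia4 -6.20 and Pdia6 -6.55. With 1 library left out, the fold changes ranged from -0.39 to 0.26 (Hspa5), -0.34 to 0.44 (Hsp90b1), -0.11 to 1.31 (Calr), -0.97 to 1.95 (P4hb), -1.51 to 0.58 (Pdia3), -0.22 to 0.86 (Pdia4), -0.52 to 0.63 (Pdia6) and -3.90 to 0.80 (Sec61b). With the replicate number as a block, limma called 0 members higher and 0 lower, and 0 of all genes tested; the labels state no pairing, and replicate differences correlated at r = 0.112 between the groups over genes. The causes were not tested. The few reads per member in BAT-Mito limit the precision, and the depth of BAT-total is unknown.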

Other observations

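The members' pattern was also looked for in a list chosen after seeing the data, 34 genes other than the members whose Gene Ontology terms name the ER lumen, 13 of which also stand in lists above. The 25 tested had a median log2 fold change of -1.02, and the list took 0.371% and 0.217% of nuclear protein-coding values in BAT-Mito and 0.295% and 0.284% in BAT-total, with replicate 1 above and replicate 2 below both BAT-total libraries. The 8 macrophage markers summed to 400 and 399 normalised counts in BAT-Mito and 104 and 95 in BAT-total. Of the 8 endothelial markers, 7 were at 0 in BAT-Mito replicate 2. Of the plasma and B cell markers, 4 of 8 were in the table and all 4 were at 0 in both BAT-Mito libraries. The 76 cytosolic ribosomal protein genes tested were lower in BAT-Mito replicate 1 than in replicate 2 by a median of -0.37 on the log2 scale.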
